A study of Homo sapiens with 12 samples.

Results

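The 10 miRNAs described here are hsa-miR-630, hsa-miR-483-5p, hsa-miR-663, hsa-miR-575, hsa-miR-1207-5p, hsa-miR-1915, hsa-miR-1268, hsa-miR-638, hsa-miR-765 and hsa-miR-198. They were taken by name from the 851 human miRNA names of the processed value table, and they had been chosen because their values rose from day 0 to days 7 and 14 of culture. Differences between days therefore describe how the set was built, and the counts of calls given for them support nothing. All 10 were among the 219 miRNAs that were tested, because each was detected in both samples of at least 1 group.

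The study followed the human osteosarcoma line SaOS-2 and Sa/CD99, which are SaOS-2 cells stably transfected by calcium phosphate with CD99, a cell surface glycoprotein. The day 0 RNA came from cells before the change of medium, and the RNA of days 7 and 14 from cells kept that long in osteogenic medium (IMDM with less fetal bovine serum than in routine culture, beta-glycerophosphate and ascorbic acid). Medium and serum thus changed together with day, and their parts cannot be told apart. Each of the 6 groups of cell and day held 2 samples, which for SaOS-2 were replicates 1 and 2 and for Sa/CD99 were the clones Sa/CD99wt22 and Sa/CD99wt36 (clones 22 and 36 from here on), so that each clone is 1 transfected line seen at every day. Nothing in the labels says that the 2 SaOS-2 samples of a day came from separate cultures, and the p-values measure the spread between these samples. The CD99 transcript is not measured by these arrays and could not be used to check the labels. Of 8 mesenchymal or osteoblast miRNAs 6 were detected in all 12 samples, and the 4 blood, 5 epithelial, 3 muscle and 1 liver miRNAs in none. Of 2 neural miRNAs, miR-9 was detected in 1 sample and miR-124 in none.

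A mature miRNA is a short RNA loaded into an Argonaute protein, where bases 2 to 8 from its 5′ end, the seed, pair with messenger RNAs and lower their translation or stability. Family members share a seed and so many targets. The 7 members with a sequence are not a family in that sense. The 10 come from separate genes on 9 chromosomes, several were first listed from cloning or sequencing of tumour cells, and some have been studied as inhibitors of proliferation or as miRNAs that respond to stress.

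RefSeq (assembly GRCh38.p14) held mature sequences for 7 of the 10. They are shown because base composition gives the set its working description, and because seeds show whether members could share targets. Capitals mark the seed.

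hsa-miR-630: aGUAUUCUguaccagggaaggu
hsa-miR-663: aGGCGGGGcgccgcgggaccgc
hsa-miR-1915: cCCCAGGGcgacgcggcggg
hsa-miR-1268: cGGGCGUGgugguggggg
hsa-miR-638: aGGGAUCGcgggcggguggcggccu
hsa-miR-765: uGGAGGAGaaggaaggugaug
hsa-miR-198: gGUCCAGAggggagauagguuc

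The 7 sequences had 7 different seeds. miR-663 is listed there as miR-663a, miR-1915 as miR-1915-3p and miR-1268 as miR-1268a. miR-630 lies at chr15:72587277-72587298 on the plus strand, inside the interval of ARIH1, a ubiquitin ligase gene. miR-638 lies at chr19:10718419-10718443 on the plus strand, inside DNM2, the gene of the endocytic GTPase dynamin 2. miR-765 lies at chr1:156936156-156936176 on the minus strand, inside ARHGEF11 and LRRC71. miR-198 lies at chr3:120395703-120395724 on the minus strand, inside FSTL1, which encodes a secreted glycoprotein. miR-663 (chr20:26208243-26208264, minus strand) and miR-1915 (chr10:21496576-21496595, minus strand) lie inside their own non-coding host genes. miR-1268 (chr15:22225308-22225325, minus strand) lies in no other listed gene. Whether these positions are exonic or intronic was not examined. miR-483-5p, miR-575 and miR-1207-5p have their genes within IGF2, SCD5 and PVT1 respectively.

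The composition held to the description "GC-rich" for only part of the set. GC content was 90.9% in miR-663, 90.0% in miR-1915, 83.3% in miR-1268 and 80.0% in miR-638. It was 59.1% in miR-198, 52.4% in miR-765 and 45.5% in miR-630, against a median of 52.2% in the 181 other tested miRNAs that had a sequence. The 7 members were more alike in G alone, with a median of 52.4% G (range 31.8% to 72.2%) against a median of 30.4% in the others. A run of 3 G bases (GGG, read in the mature strand only) was present in 6 of the 7, miR-765 being the exception. The same motif was present in 43.1% of the other tested miRNAs and in 33.2% of the 2370 mature names in RefSeq.

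Before any level is read, the labels of the arrays have to be described, because 2 deposited records of the same 12 arrays disagree. In the value table each column belongs to a labelled sample. Each of the 12 columns matched 1 scanner file exactly, with the same detection call for 847 of 847 shared names and a rank correlation of 1, but in 12 of 12 cases that scanner file had been deposited under a different sample. The array most alike in rank over all names belonged to the same group for 7 of 12 arrays under the labels of the value table and for 1 of 12 as filed. Under the former this held for every Sa/CD99 array, but among SaOS-2 only for day 0 replicate 2. Each replicate 1 of SaOS-2 was most like a Sa/CD99 array of its own day. Deviations of same-numbered samples from their group means correlated at 0.03 to 0.20 between days under the labels of the value table and at -0.90 to 0.18 as filed. These measures run with the value table, but no file states which record is right. Under the labels of the value table, both samples of a group always shared a slide column, and replicate or clone number ran with slide row on all 12 arrays. Under the filed labels, each cell type lay on a slide of its own. The values below use the labels of the value table unless stated otherwise, and the results under the filed labels follow at the end.

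Under the labels of the value table the day 0 samples all lay on slide 1 and the day 14 samples all on slide 2. At day 7 the SaOS-2 samples lay on slide 1 and the Sa/CD99 samples on slide 2. The change from day 0 to day 7 in SaOS-2 was thus within a slide, and so were the cell comparisons at days 0 and 14. The comparison at day 7 cannot be told apart from slide.

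The value table holds log2 levels that had been brought to a common distribution across samples, so a value states rank more than amount. Undetected miRNAs sit at the lowest value of their column. A change in the number of cells of a type and a change in RNA per cell cannot be told apart in such bulk samples. At day 0 the 4 samples had 1 to 5 of the 10 miRNAs detected, and in the 8 later samples all 10 were detected in every one.

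hsa-miR-630, which has been studied in stress responses, was undetected at day 0 in both cells and detected in every later sample. In SaOS-2 it was not detected in either day 0 sample, stood at 8.69 and 9.42 at day 7, and at 8.80 and 8.19 at day 14. In Sa/CD99 it was again not detected in either day 0 sample, with 8.35 and 8.46 at day 7 and 9.61 and 8.96 at day 14. Every later sample lay far above every day 0 sample, and the day 7 and day 14 ranges of SaOS-2 overlapped. Because both day 0 samples were undetected, the size of the difference depends on the value that stands for day 0. With the lowest detected value of each day 0 column in its place, the day 14 to day 0 ratio of miR-630 was 139 in SaOS-2 and 136 in Sa/CD99. An RMA-type summary of the spots of the same arrays gave 86.5 and 172, so these ratios are no strict bounds.

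hsa-miR-483-5p and hsa-miR-663 were likewise undetected in all 4 day 0 samples. miR-483-5p, from the imprinted locus that also makes the growth factor IGF2, stood in SaOS-2 at 5.79 and 6.47 at day 7 and at 7.26 and 6.35 at day 14. In Sa/CD99 it stood at 5.79 and 6.41 at day 7 and at 7.34 and 7.47 at day 14. Its clones separated day 14 from day 7, whereas the SaOS-2 samples of these days overlapped. miR-663 stood in SaOS-2 at 5.41 and 6.62 at day 7 and at 7.09 and 7.05 at day 14. Values in Sa/CD99 were 5.49 and 6.15 at day 7 and 7.05 and 7.14 at day 14. Day 14 exceeded day 7 without overlap in both cells for miR-663. With day 0 at the lowest detected value, the day 14 to day 0 ratios in SaOS-2 and Sa/CD99 were 43.1 and 36.8 for miR-483-5p and 51.7 and 29.7 for miR-663. The RMA-type summary gave 50.3 and 65.7 for miR-483-5p and 61.0 and 80.4 for miR-663.

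hsa-miR-765 and hsa-miR-198 lay closest to the detection limit in the later samples, and neither was detected at day 0. miR-765 stood in SaOS-2 at 3.09 and 3.49 at day 7 and at 5.21 and 3.65 at day 14. In Sa/CD99 it stood at 3.52 and 4.55 at day 7 and at 5.41 and 5.46 at day 14. The SaOS-2 samples of day 14 were spread over more of the scale than the clones of that day. miR-198, which shares its primary transcript with FSTL1, stood in SaOS-2 at 2.79 and 3.27 at day 7 and at 4.94 and 3.90 at day 14. Values in Sa/CD99 were 3.02 and 4.2 at day 7 and 5.49 in both clones at day 14. Computed as for miR-630, their day 14 to day 0 ratios were 8.31 and 8.24 in SaOS-2 and 9.40 and 9.82 in Sa/CD99. The RMA-type summary gave 7.27 and 6.87 in SaOS-2 and 13.0 and 15.4 in Sa/CD99.

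**Figure D1:**
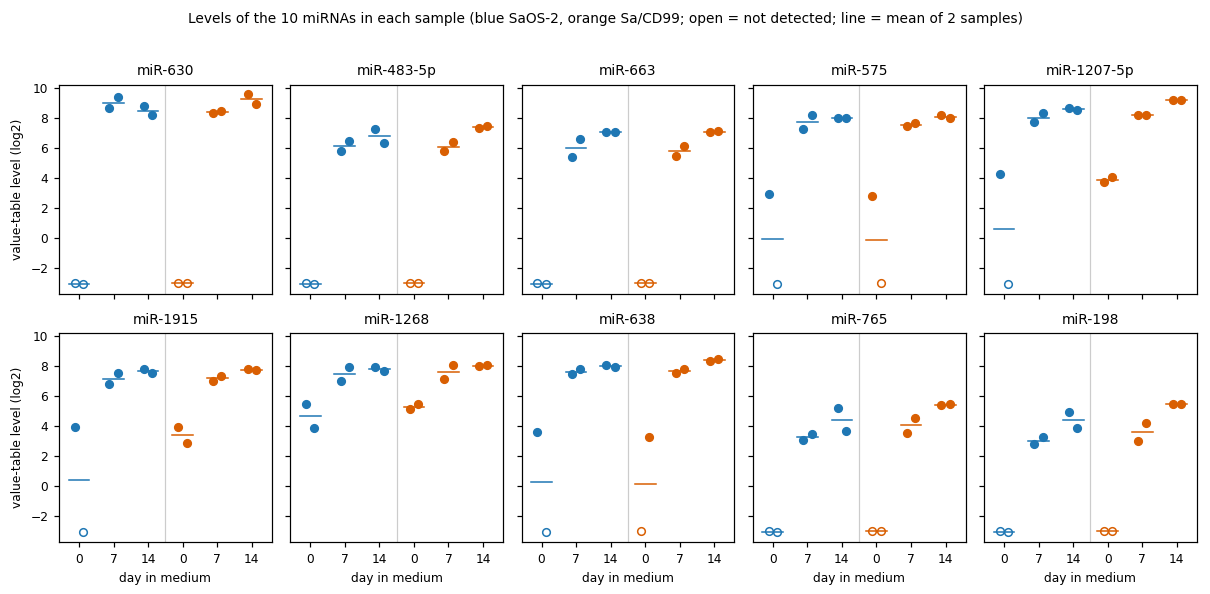
Level of each of the 10 miRNAs (log2, value table) in each of the 12 samples by day, for SaOS-2 (blue) and Sa/CD99 (orange). Points are samples, open where the miRNA was not detected, and lines are means of 2 samples; all 8 later samples lie above all 4 day 0 samples in every panel, and only miR-1268 is detected in every sample.

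hsa-miR-1268 was detected in all 12 samples and gives the only difference that was measured on both sides throughout. In SaOS-2 it stood at 5.46 and 3.90 at day 0, at 7.05 and 7.93 at day 7, and at 7.93 and 7.66 at day 14. In Sa/CD99 it stood at 5.12 and 5.46 at day 0, at 7.14 and 8.09 at day 7, and at 7.99 and 8.09 at day 14. The day 0 mean of SaOS-2, 4.68 ± 1.10 (SD, n = 2), had the widest spread of its groups. The day 14 minus day 0 difference was 3.12 on the log2 scale in SaOS-2 (8.67-fold) and 2.75 in Sa/CD99 (6.73-fold).

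hsa-miR-1207-5p and hsa-miR-1915 were detected in both day 0 clones of Sa/CD99 and in 1 of 2 day 0 samples of SaOS-2. miR-1207-5p stood in SaOS-2 at 4.28 in replicate 1 at day 0, with replicate 2 undetected, then at 7.72 and 8.35 at day 7 and at 8.69 and 8.55 at day 14. Values in Sa/CD99 were 3.70 and 4.07 at day 0, 8.19 in both clones at day 7 and 9.20 in both clones at day 14. The Sa/CD99 difference from day 0 to day 14, 5.32 on the log2 scale (39.9-fold), was thus measured on both sides. miR-1915 stood in SaOS-2 at 3.93 in replicate 1 at day 0, then at 6.80 and 7.56 at day 7 and at 7.83 and 7.56 at day 14. In Sa/CD99 it stood at 3.95 and 2.85 at day 0, at 7.05 and 7.34 at day 7, and at 7.83 and 7.72 at day 14. Its measured difference from day 0 to day 14 in Sa/CD99 was 4.38 on the log2 scale (20.8-fold).

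hsa-miR-575 and hsa-miR-638 were each detected in 1 of 2 day 0 samples of each cell. miR-575 stood in SaOS-2 at 2.94 in replicate 1 at day 0, then at 7.26 and 8.19 at day 7 and at 7.99 in both samples at day 14. Values in Sa/CD99 were 2.77 in clone 22 at day 0, then 7.47 and 7.66 at day 7 and 8.19 and 7.99 at day 14. The detected day 0 values were low against the later ones in both cells. miR-638 stood in SaOS-2 at 3.62 in replicate 1 at day 0, then at 7.47 and 7.83 at day 7 and at 8.09 and 7.93 at day 14. In Sa/CD99 it stood at 3.24 in clone 36 at day 0, then at 7.56 and 7.83 at day 7 and at 8.35 and 8.46 at day 14. SaOS-2 replicate 2 at day 0 had the fewest detected members, miR-1268 alone.

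Equal numbers in different samples of the value table arise because samples share 1 set of values by rank. miR-1207-5p had the same rank value in both clones at day 7, for example, while its unscaled signal on the matching arrays was 262 and 318 scanner units.

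The counts of calls against day 0 follow from how the set was chosen, and nothing is read from them. By limma 10 of 10 members were called higher at day 7 than at day 0 in SaOS-2 and 8 of 10 in Sa/CD99, where 21.5% and 21% of the 219 tested miRNAs were called higher (adjusted p of at most 0.05). At day 14 against day 0 the counts were 10 of 10 and 9 of 10, where 28.8% and 37% of all were called higher. The count in SaOS-2 at day 7 was 6 of 10 without SaOS-2 day 7 replicate 2, the count at day 14 was 6 of 10 without SaOS-2 day 14 replicate 1, and the count in Sa/CD99 at day 7 was 5 of 10 without clone 36 of that day. With the total signal of each array as a covariate, 5 of 10 were called in each of these 4 contrasts, where of all 219 miRNAs 36 and 40 were called in either direction in SaOS-2 (days 7 and 14) and 34 and 27 in Sa/CD99. Later samples lay above day 0 samples without overlap for 10 of 10 members and for 21.5% of all tested miRNAs. The median difference from day 0 to day 14 was 7.91 in SaOS-2 and 8.37 in Sa/CD99 on the log2 scale with undetected values at the column minimum. With those values set to the lowest detected value of the column it was 5.56 and 5.05.

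From day 7 to day 14, when every member was detected in every sample, the median difference of the members was 0.55 in SaOS-2 (9 of 10 higher) and 0.95 in Sa/CD99 (10 of 10 higher). The medians of all tested miRNAs were -0.06 and -0.36. By limma none of the members was called higher in SaOS-2 (0% of all) and 1 was in Sa/CD99 (15.1% of all), a count that ran from 0 to 3 when single samples were left out. In Sa/CD99 9 of 10 members lay higher in both day 14 samples than in both day 7 samples, where 36.1% of all did, the exception being miR-1268. In SaOS-2 5 of 10 did so, where 14.2% of all did, namely miR-663, miR-1207-5p, miR-638, miR-765 and miR-198. Days 7 and 14 lay on different slides in SaOS-2 and on the same slide in Sa/CD99.

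The day 0 arrays had lower totals than the others, and these were read beside the members. Detected human miRNAs summed to between 8523 and 11302 scanner units on the 4 arrays matched to day 0, and to between 25162 and 62172 on the 8 others. The 10 members together gave 10.9 to 48.6 units on the day 0 arrays, which was 0.0965% to 0.514% of the total. On the other arrays they gave 925 to 5226 units, or 3.51% to 8.41%. The members therefore differed as a share of the signal as well as in amount, without overlap between day 0 and later arrays.

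Another name made up much of the later totals. hsa-miR-923, which the array lists with a version suffix and which was later traced to ribosomal RNA, held 2.13% to 6.55% of the signal on the day 0 arrays and 48.5% to 66.9% on the others. Without it the day 0 arrays summed to 8106 to 11061 units and the others to 9501 to 25527. The dimmest later array, SaOS-2 day 7 replicate 1, then fell below the brightest day 0 array. Every other later array, from 13576 units up, still lay above all day 0 arrays. The share of the members in this remaining signal was 0.0986% to 0.550% on the day 0 arrays and 9.74% to 23.9% on the others. The let-7 family, whose members are kept high in many differentiated cells, held 24.3% to 30.8% of the total on day 0 arrays and 3.23% to 9.41% on the others. Of the signal without miR-923 it held 24.8% to 32.5% and 9.75% to 24.9%, ranges that overlapped, and in scanner units it stood at 2618 to 2873 on day 0 arrays and 1840 to 3056 on the others.

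**Figure D2:**
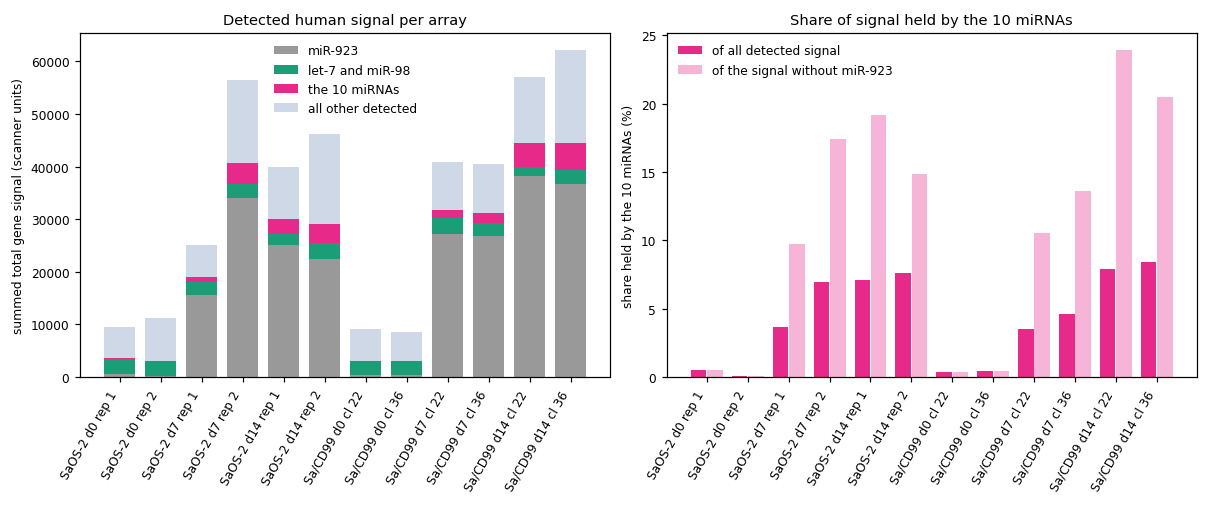
Summed detected human signal on each array in scanner units (left, stacked by miR-923, the let-7 family with miR-98, the 10 miRNAs and all others) and the percent held by the 10 miRNAs (right; dark bars of all signal, pale bars of the signal without miR-923), by sample under the labels of the value table. The 4 day 0 arrays total 8523 to 11302 units, and the members hold at most 0.514% there against at least 3.51% on the 8 later arrays.

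The members' later shares were set beside the lowest signal detected on the day 0 arrays, which is a value of the whole array and not the detection limit of each member. That signal lay between 1.33 and 1.5 units. At its lowest later share, 0.765% of the total, miR-630 would amount to between 65.2 and 86.5 units on the day 0 arrays, where it was not detected on any of the 4. For miR-663 the same figure was 11 to 14.6 units, and for miR-483-5p 14.2 to 18.8 units. For miR-765 and miR-198 it was only 2.32 to 3.08 and 1.71 to 2.27 units, close to that signal, and whether they would have been detected there was not tested. Whether RNA amount or quality moved these signals was not tested.

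Each member was read by 2 probes with 8 spots each, and for 20 of 20 probes the median spot signal over local background was higher on all 8 later arrays than on all 4 day 0 arrays. These readings make up the values by which the members were chosen, and they are given as a description. The 2 probes of miR-630 read 273 to 1233 and 247 to 1209 units on later arrays, and 3 to 8 and 2.5 to 7.75 on day 0 arrays. For miR-663 they read 47.3 to 326 and 23.5 to 157 on later arrays, and 1 to 3.25 and -0.5 to 2.25 on day 0 arrays. No spot of a member was saturated. The probes of miR-1268 stood apart, since 1 read 21.5 to 43.5 units on day 0 arrays and the other 6 to 9.5.

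The other GC-rich miRNAs differed in part as the members did. The 55 other tested miRNAs with a GC content of at least 60% held 5.60% to 6.23% of the signal on day 0 arrays and 3.77% to 8.73% on later arrays, ranges that overlapped. Of the signal without miR-923 they held 5.99% to 6.52% on day 0 arrays and 9.97% to 21.3% on later arrays, ranges that did not overlap. From day 0 to day 14 in SaOS-2, 35 of these 55 were higher with a median log2 difference of 1.90, and in Sa/CD99 34 of 55 with a median of 1.93. Of the 126 with less GC, 37 were higher at day 14 than at day 0 in SaOS-2 (median -0.91) and 44 in Sa/CD99 (median -1.13). Among the 54 others with 40% to 50% GC, the class of miR-630, the medians from day 0 to day 14 were -1.12 and -1.42, whereas miR-630 itself differed by 11.6 and 12.3 between these days with its day 0 values at the column minimum. From day 0 to day 7 31 of the 55 with at least 60% GC were higher in SaOS-2 (median 0.55) and 26 in Sa/CD99 (median -0.20).

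From day 0 to day 14, G content followed the difference more closely than GC content did. Across the 181 other tested miRNAs with a sequence, which share arrays and so are not independent, Pearson's r between the day 14 minus day 0 difference and percent G was 0.45 in SaOS-2 and 0.48 in Sa/CD99, and with percent GC it was 0.39 and 0.31. In the 84 miRNAs with a sequence detected in every sample, r with percent G was 0.45 in both cells, and with percent GC 0.18 and 0.13. These 84 include the member miR-1268, with 72.2% G, which was chosen on this difference, so they are not free of the members. Spearman's rho in these 84 was lower, at 0.25 and 0.32 for percent G and -0.13 and -0.06 for percent GC. Between days 7 and 14 in SaOS-2 the order was the other way, with r of 0.09 for percent G and 0.24 for percent GC in the 181, and 0.28 and 0.35 in the 84. Of the 24 others with at least 45% G, 20 were higher at day 14 in SaOS-2 (median 4.76) and 21 in Sa/CD99 (median 5.85). Of the 64 with under 25% G, 10 and 13 were higher (medians -1.37 and -1.97). Of the 7 members with a sequence 6 belong to the first class, and miR-630, with 31.8% G, stands outside it. Among the 78 others that hold GGG, 49 and 52 were higher at day 14, against 23 and 26 of the 103 without it.

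**Figure D3:**
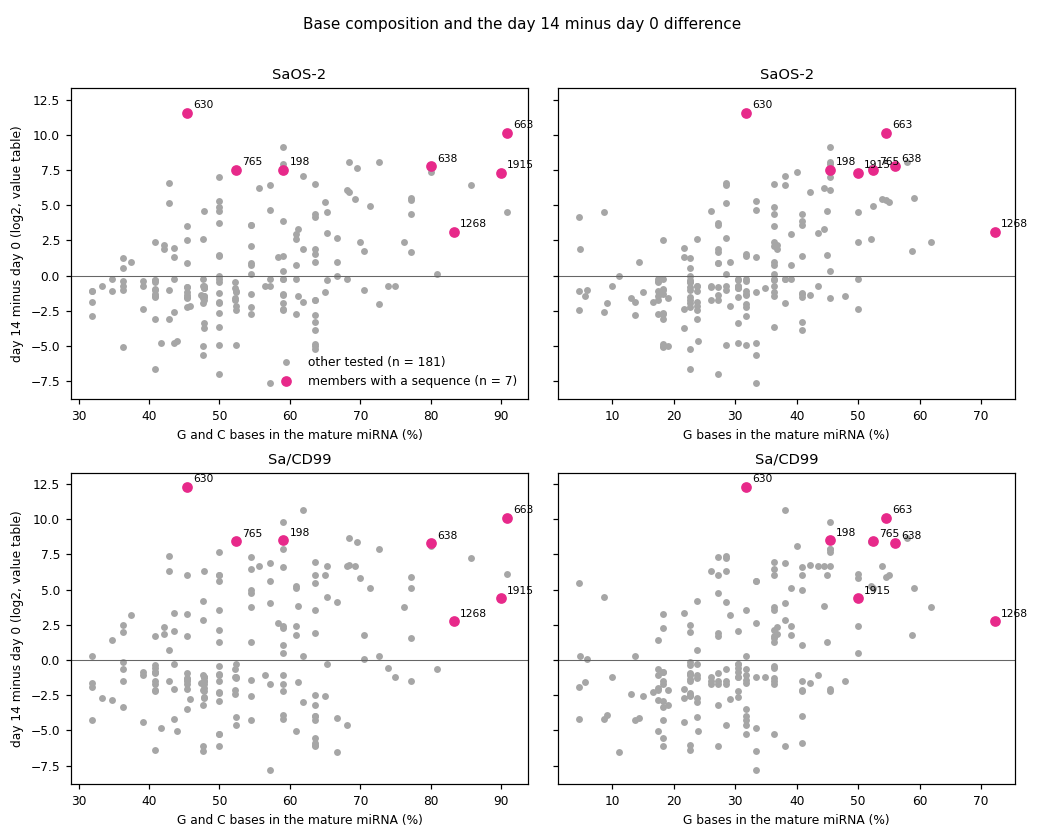
Difference between day 14 and day 0 (log2, value table) against percent G and C (left) and percent G (right) of the mature miRNA, in SaOS-2 (top) and Sa/CD99 (bottom). Each grey point is 1 of 181 other tested miRNAs and each pink point 1 of the 7 members with a sequence; miR-630 lies apart from the others at its composition, and differences rise with percent G (r of 0.45 and 0.48 without the members).

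On the rank-scaled levels of the value table, the 9 miRNAs of the let-7 list were lower at day 14 than at day 0 in both cells (medians -1.33 and -1.71). Their sum in scanner units overlapped between day 0 arrays (2618 to 2873) and later arrays (1840 to 3056). A list of names later traced to other structured RNAs, which did not hold miR-923, had 8 tested members, of which miR-1308 was higher and 7 were lower in each cell (medians -1.34 and -1.57). miR-923 itself stood at 8.19 to 9.61 at day 0 and at no less than 14.1 later.

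The miRNAs most like the mean of the members were named from 175 others detected in at least 6 of 12 samples, by Pearson's r over the 12 samples. This r follows the contrast between day 0 and later samples that all 12 points share. They were miR-1225-5p (r = 0.995, 77.3% GC), miR-1202 (r = 0.99, 71.4% GC), miR-923, miR-887 and miR-939 (each r = 0.99). miR-1225-5p and miR-1202 were detected at day 0, at 3.32 to 4.94 and 3.74 to 4.39, and stood later at 8.46 to 10.1 and 7.99 to 9.61. miR-887 and miR-939 were undetected in all 4 day 0 samples, as 5 of the members were. The most opposite were miR-210, a miRNA induced by hypoxia (r = -0.96), miR-92a (-0.96), miR-129-5p (-0.95), miR-221 (-0.95) and miR-29b-1* (-0.93). miR-210 stood between 6.35 and 7.05 at day 0 and between 2.73 and 3.86 later. Among the members themselves, the 45 pairwise r over the 8 later samples ran from 0.38 to 0.98 with a median of 0.80.

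Under the labels of the value table, the comparison of Sa/CD99 with SaOS-2 was not used to choose the members and was tested. No member passed the limits of the methods at any day, a p of at most 0.01 with a minimum fold change, where 2.74% of the 219 tested miRNAs did so at day 0, 3.2% at day 7 and 9.13% at day 14. By limma with Benjamini-Hochberg adjustment none passed at an adjusted p of 0.05 at day 0 (2.74% of all called), day 7 (1.37%) or day 14 (2.74%), over all days (2.74% of all called) or in the interaction of cell and day (1.83% of all called). None had an unadjusted p under 0.05 in these 5 comparisons either, the lowest being 0.0616. For miR-575, miR-1207-5p, miR-1915 and miR-638 the SE at each day was 1.83 to 2.34 on the log2 scale. Their undetected and detected day 0 samples both entered the shared spread. Only a very large difference could have passed for them at days 7 and 14. The fit to the 8 later samples, given below, leaves the day 0 samples out.

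At day 0 the difference can be read for only part of the set. Of the members 5 were undetected in all 4 samples and have no fold. miR-1268 differed by 0.61 ± 0.59 (SE) on the log2 scale. miR-1207-5p and miR-1915 were detected in 3 of 4 samples, and their differences of 3.32 ± 1.90 and 3.0 ± 1.83 come from SaOS-2 replicate 2, which was at the column minimum. Without SaOS-2 day 0 replicate 1, in which both were detected, the differences were 7.02 and 6.53 at day 0 and 2.59 and 2.21 over all days. The lone remaining SaOS-2 day 0 sample was undetected for both, so these sizes depend on the value that stands for undetected. Calls made without that replicate, here and in the interaction, assume that the lone sample varies like the other groups.

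At day 7 the members lay on both sides of zero, 6 higher and 4 lower in Sa/CD99 with a median of 0.03 (all tested miRNAs 0.02). miR-765 lay above SaOS-2 and miR-630 below it without overlap, where 13.2% and 25.6% of all did so in those directions. Slide and cell cannot be told apart at this day.

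At day 14 all 10 were higher in Sa/CD99, with a median of 0.49 against -0.000867 for all tested miRNAs, of which 49.8% were higher. Others like them in composition leaned the same way. Higher were 55 of the 78 with GGG (median 0.58) and 34 of the 55 with at least 60% GC (median 0.45). Of the 103 without GGG 32 were higher (median -0.50), and of the 126 with less GC 53 (median -0.24). The direction was thus not particular to the members. Total signal was 57021 and 62172 units on these Sa/CD99 arrays and 39845 and 46250 on the SaOS-2 arrays. The 2 clones lay above both SaOS-2 samples for 7 of 10 members, where 33.8% of all did: miR-630, miR-483-5p, miR-1207-5p, miR-1268, miR-638, miR-765 and miR-198. The largest differences were those of miR-198 (1.07 ± 0.49 SE, limma adjusted p of 0.306), miR-765 (1.0 ± 0.55, adjusted p of 0.377) and miR-630 (0.79 ± 0.40, adjusted p of 0.320). All of these stood at the column minimum in every day 0 sample, which made the shared spread and so the SEs smaller. In a fit to the 8 later samples alone, in which every member was detected, limma called 0% of 208 miRNAs at day 7 or day 14 and 0.481% over both days, and no member had an unadjusted p under 0.05. In that fit the 95% interval of the day 14 difference was -0.32 to 2.47 for miR-198, -0.55 to 2.55 for miR-765 and -0.36 to 1.95 for miR-630. Their SEs there were 0.58, 0.64 and 0.48 (limma adjusted p of 0.415, 0.456 and 0.451). Half-widths over the 10 members ran from 0.92 to 1.55. Without SaOS-2 day 14 replicate 1, miR-765 passed the limits of the methods (1.78, p of 0.00775, limma adjusted p of 0.0554), as did 37 of all tested miRNAs against 20 with every sample, and there too the lone SaOS-2 sample is assumed to vary like the other groups. Both day 14 groups lay on slide 2.

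**Figure D4:**
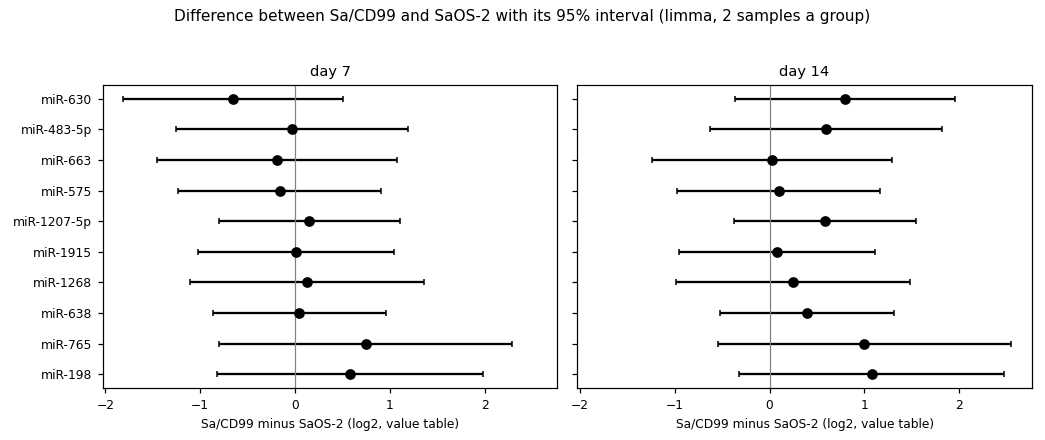
Sa/CD99 minus SaOS-2 for each of the 10 miRNAs at day 7 and day 14 (log2, value table), with 95% intervals from limma on the 8 samples of these days. Every interval includes 0, and all 10 points lie above 0 at day 14, from 0.03 for miR-663 to 1.07 for miR-198.

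The scanner files were also read with each array under the label of its matching column. With an RMA-type summary of the spots, the median difference of the members from day 0 to day 14 was 5.31 in SaOS-2 and 5.68 in Sa/CD99, and 10 of 10 were higher in both. At day 14 10 of 10 were again higher in Sa/CD99 (median 0.31), and none passed the limits of the methods at any day (4.11%, 1.37% and 3.65% of all did so). At an unadjusted limma p under 0.05 there was 1 member at day 0 (miR-1915, p of 0.0375, adjusted p of 0.456) and 1 at day 14 (miR-198, p of 0.0329, adjusted p of 0.283).

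With the arrays under the samples they had been filed with, the pattern moved from day to cell. The 4 arrays on which only 1 to 5 of the members were detected were then filed as Sa/CD99: clone 36 at day 0, clone 22 at day 7 and both clones at day 14. miR-630, on the RMA-type log2 scale, stood between 8.41 and 9.83 on the 6 arrays filed as SaOS-2, at 8.90 and 9.21 on 2 arrays filed as Sa/CD99 (clone 22 at day 0 and clone 36 at day 7), and between 1.53 and 2.92, undetected, on the other 4. The members had been chosen for low values on these 4 arrays, so under this record the cell differences repeat the values of the choice and are a description only. Over all days limma called 10 of 10 members lower in Sa/CD99, where 27.7% of the 213 tested miRNAs were called lower, with a median difference of -3.64 among the members. At day 0 1 of 10 passed the limits of the methods as lower in Sa/CD99 (1.88% of all), at day 7 none (0% of all) and at day 14 5 of 10 (8.92% of all). Between days no member was called in either cell, where 0% of all tested miRNAs were called. At an unadjusted limma p under 0.05 1 member differed between days 0 and 14 of Sa/CD99, 2 members between its days 7 and 14, and 0 in the other contrasts of days. The medians from day 0 to day 14 were -0.52 in SaOS-2 and -2.12 in Sa/CD99. Cell and slide cannot be told apart under this record.

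**Figure D5:**
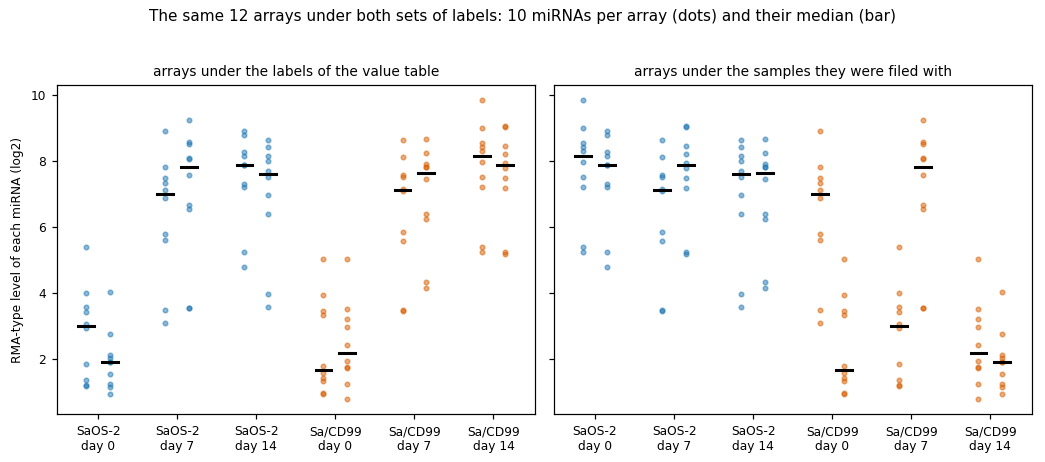
RMA-type log2 level of the 10 miRNAs on each of the 12 arrays (dots) and their median (bar), grouped by the labels of the value table (left) and by the samples the scanner files were deposited with (right). The same 4 low arrays are the day 0 samples on the left and 4 of the 6 Sa/CD99 samples on the right.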

How the data were processed

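Small RNA of 12 samples (6 groups of 2) was read on 1-colour Agilent human miRNA arrays. The authors extracted spot signals with Feature Extraction and deposited scanner files of intensity values per spot. They also deposited a log2 value table, made per the submitters' processing notes with RMA; in this table each column is quantile-scaled total gene signal, as its ranks show. The deposited scanner files and value table were matched by detection pattern. The members and lists were chosen with earlier results of these data known. Groups were fitted together with limma 3.58.1 in R 4.3.3 (6 residual degrees of freedom), on miRNAs above the column minimum in both samples of at least 1 group, following the methods' limits (p of at most 0.01, log2 fold change of at least 0.485), with Benjamini-Hochberg adjusted p beside them. The fit was tested on simulated data for the cell contrast over all days only, drawn from miRNAs detected in all 12 samples. It recovered 62.5% and 82.5% of true log2 changes of 1 and -1. The simulation held no undetected values and so does not cover members at the column minimum. Spots were also summarised after normexp correction, quantile scaling and median polish. Sequences were matched by name for 188 of 219 tested miRNAs (85.8%). Other miRNAs named were the 5 most and 5 least like the members. Same-numbered samples are the same clone in Sa/CD99; deviations of same-numbered samples correlated at 0.18, 0.18 and 0.20 in SaOS-2 and at 0.03, 0.18 and 0.07 in Sa/CD99. The number of arrays limits the precision.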

Additional observations from a re-analysis of the deposited data

How the results depend on the processing

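With the arrays under their filed samples, 1, 5 and 10 members were called between cells at day 0, at day 14 and over all days, and 0 in every day contrast. The median cell differences turned to -3.12, -2.22, -4.98 and -3.64 (days 0, 7, 14 and all). The medians between days became -0.59 and -0.52 in SaOS-2 (days 7 and 14 against day 0) and 0.65, -2.12 and -2.82 in Sa/CD99 (the last for day 14 against day 7). Over all days the members, in the order of the opening list, differed by -4.48, -3.88, -4.01, -3.65, -3.74, -3.25, -2.02, -3.63, -2.32 and -2.41, and at day 14 by -6.56, -4.83, -5.75, -6.15, -5.62, -5.03, -3.27, -4.93, -2.46 and -2.42. With relabelled scanner arrays the medians against day 0 were 4.86 and 5.31 in SaOS-2 and 4.71 and 5.68 in Sa/CD99, with 3 members called from day 7 to 14 in Sa/CD99, and hsa-miR-638 turned to -0.13 over all days. With 75th percentile scaling these were 5.20, 6.23, 4.91 and 6.66, with 5 called, and hsa-miR-663 and hsa-miR-575 turned to 0.081 and 0.11. With undetected values at the lowest detected value, chosen after seeing the data, they were 4.80, 5.56, 3.85 and 5.05, with 0 called, and both turned to 0.22 and 0.16. Among miRNAs detected in all 12 samples only hsa-miR-1268 remained (2.81, 3.12, 2.33 and 2.75), so 1 was called in each contrast with day 0 and 0 from day 7 to 14 in Sa/CD99. With total signal as a covariate 5 were called in each contrast with day 0 and 0 from day 7 to 14 in Sa/CD99, and hsa-miR-663 turned to -0.41 at day 14. With only the groups compared, 5 and 6 were called in SaOS-2 and 2 from day 7 to 14 in Sa/CD99, and the day 0 cell median was 3.0 over 3 members. With no filter 0 were called from day 7 to 14 in Sa/CD99.

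Leaving out single samples gave 0 to 2 members called at day 0, over all days and in the interaction, 0 at day 7, 0 to 1 at day 14 and from day 7 to 14 in SaOS-2, 6 to 10 in SaOS-2 against day 0 (both days), 5 to 10 and 7 to 10 in Sa/CD99 against day 0, and 0 to 3 from day 7 to 14 in Sa/CD99. Over all tested miRNAs the counts ran from 6 to 26 at day 0, 6 to 28 at day 7, 9 to 37 at day 14, 4 to 20 over all days and 3 to 26 in the interaction. Between days they ran in SaOS-2 from 61 to 114 and 65 to 132 against day 0 and 0 to 19 from day 7 to 14, and in Sa/CD99 from 45 to 83, 138 to 167 and 5 to 79. The SaOS-2 medians against day 0 ran from 5.42 to 9.79 (day 7) and from 6.25 to 10.5 (day 14). Over all days the cell difference changed sign for hsa-miR-630 (-0.053 to 0.19), hsa-miR-663 (-0.23 to 0.17), hsa-miR-575 (-1.05 to 0.98), hsa-miR-1915 (-0.15 to 2.21) and hsa-miR-638 (-1.02 to 1.23), and at day 14 for hsa-miR-663 (-0.022 to 0.074) and hsa-miR-1915 (-0.053 to 0.22). With the replicate number as a block 10 members in place of 9 were called from day 0 to 14 in Sa/CD99, and over all tested miRNAs 3 in place of 6 were called between cells over all days. The block changed no other count of member calls. The 75th percentile over all miRNAs was not run because it fell on an undetected value on 10 of 12 arrays, and slide was not fitted as a term because each group lay on 1 slide. The cause of these shifts was not tested.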
